A study of Mus musculus with 1152 samples.

Results

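The mitochondrially encoded genes are the genes carried by the mitochondrial (mt) chromosome itself. All genes of the deposited count table whose symbol starts with mt- were taken, which gave 37 of 46517 genes: 2 ribosomal RNA (rRNA) genes, 13 messenger RNA (mRNA) genes and 22 transfer RNA (tRNA) genes. Each was described by its share of the reads of a well and its share of the mt reads. Single brain cells had been sorted as fluorescent cells from adult C57BL/6 mice of both sexes and of a pair of lines, Pdgfra-H2BGFP and Tagl-CREERT2;Ai14, with magnetic beads against the endothelial protein CD31 used to collect vessel fragments beforehand. RNA was read with SMART-seq2, a plate method that copies polyadenylated RNA of 1 cell per well into full-length cDNA. From which mouse or line a well came is not in the labels, so the 1152 wells were treated as 1 sample, no test was made, and every comparison lacks a replicate check.

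The mt genome encodes subunits of respiratory complexes I, III, IV and V, and the rRNAs and tRNAs with which mitochondria translate them. All other subunits, and the proteins that transcribe, cut and polyadenylate mt RNA, are made from nuclear genes. Mt RNA is made as long transcripts from both strands of a circular genome, tRNAs are cut out between the longer genes, and most mt mRNAs and rRNAs receive short poly(A) tails. In single-cell work the mt share of reads is widely used as a measure of cell quality.

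The wells carried names of 3 sets of 384, 1025s_182s, 600s_182s and 613s, which the labels do not explain. Values below are from the 857 wells with at least 50000 reads unless depth is the subject, and the other 295 wells were left out of them. Wells were put into classes by marker genes at 100 or more counts per 1000000 reads of non-mt genes (CPM), at least 3 markers of a class being needed, so that the mt genes took no part in the gate. This gave 202 oligodendrocyte-like wells, 160 wells like oligodendrocyte precursor cells (OPC-like), 71 like committed oligodendrocyte precursors (COP-like), 61 fibroblast-like and 20 endothelial-like wells. A further 279 wells (32.6%) carried markers of more than 1 lineage, most often neuropil (neuron or astrocyte) with oligodendrocyte lineage markers (141 wells), and 1 well was mural-like. Sets and classes were entangled: 131 of the 160 OPC-like and 63 of the 71 COP-like wells came from set 600s_182s, while 34 of the 61 fibroblast-like and 13 of the 20 endothelial-like wells came from set 1025s_182s.

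Among the members, reads were concentrated in a few genes. Shares of the mt total were taken over the 854 wells with at least 1000 mt reads, which held 5588074 mt reads, and the intervals are exact Clopper-Pearson 95% intervals that cover counting error only, since PCR copies are not independent molecules. The 2 rRNAs took 32.7% of the mt reads, the 13 mRNAs 64.8% and the 22 tRNAs 2.50%. mt-Rnr2, the large-subunit (16S) rRNA, was the most abundant member at 24.2% (24.1 to 24.2). mt-Cytb, the only mt-encoded subunit of complex III, followed at 15.7% (15.7 to 15.7). The complex I subunits mt-Nd1 and mt-Nd5 took 11.8% and 10.4%, the complex IV subunit mt-Co1 took 10.4%, and mt-Rnr1, the small-subunit (12S) rRNA, took 8.55%. Further complex I subunits were lower, mt-Nd4 at 6.00%, mt-Nd2 at 4.78% and mt-Nd6, the only mRNA read from the other strand, at 2.49%. The ATP synthase (complex V) subunit mt-Atp8 took 2.47% and its partner mt-Atp6 took 0.709%.

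Levels between genes were compared per length, as mean reads per kb per well. mt-Rnr2 stood at 999 reads per kb, mt-Cytb at 899, mt-Nd1 at 804, mt-Atp8 at 791, mt-Rnr1 at 586, mt-Co1 at 439 and mt-Nd5 at 375. mt-Nd6, mt-Nd2 and mt-Nd4 lay between 285 and 314 reads per kb. The tRNA genes were lower as a group, at 109 reads per kb against 844 for the rRNAs and 372 for the mRNAs. The counts per well overlapped widely: mt-Rnr2 had a median of 1598 reads (quartiles 1248 and 1902), mt-Cytb 1036 (797 and 1265), mt-Nd1 756 (533 and 978), and mt-Rnr1 513 (375 and 721). A well showed a median of 31 members with at least 1 read (range 14 to 36), and 21 after each well was thinned to 1000 mt reads.

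The 5 mRNA genes with the fewest reads per kb lie in the middle of the mt genome, where mt-Atp8 stands among them with many. mt-Co2, the complex IV subunit that accepts electrons from cytochrome c, had 0 reads in every one of the 1152 wells, which allows a share of the mt total of up to 5.37e-05% (3 counts). mt-Co3, also of complex IV, had 680 reads in all wells together, mt-Nd4l of complex I had 634 and mt-Nd3 of complex I had 3195. mt-Atp6 had 46596 reads, a mean of 68.1 reads per kb per well against 791 for mt-Atp8, the gene it overlaps by 43 bases. Of all 40-base windows of a member, the share also present in a nuclear transcript of GENCODE vM21 (build GRCm38) was 100% for mt-Co2, 99.9% for mt-Co3, 99.5% for mt-Atp6, 98.8% for mt-Nd4l and 98.1% for mt-Nd3. It was 62.5% for mt-Nd4, 57.0% for mt-Co1, 12.0% for mt-Nd5, 10.1% for mt-Nd2 and at most 2.42% for the other 6 rRNA and mRNA genes. Only annotated transcripts were searched, so copies in unannotated nuclear sequence are not counted in these values. As a group the 5 genes over 80% took 0.782% of the mt reads at 18.3 reads per kb per well, against 632 for mt-Nd1 and mt-Nd6, the mRNA genes with no shared window.

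**Figure D1:**
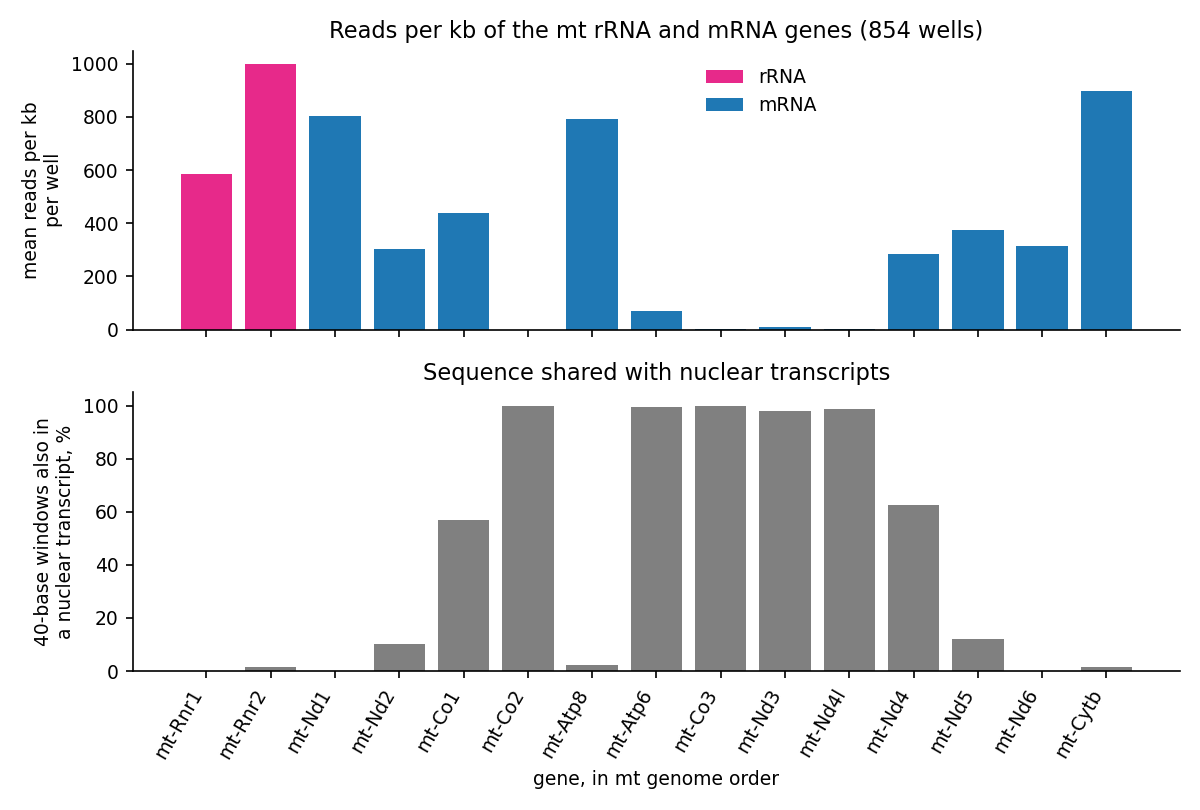
Mean reads per kb per well of the 2 rRNA (pink) and 13 mRNA (blue) genes over 854 wells (upper bars) and the percentage of each gene's 40-base windows that also occur in a nuclear transcript (lower bars), in the order of the mt genome. The 5 genes with over 80% of their windows shared are the 5 lowest in the upper bars, mt-Co2 at 0.

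Most of these copies lie side by side on chromosome 1, where 7 genes annotated as unprocessed pseudogenes span chr1:24611535-24616197 on the minus strand (GRCm38, 4663 bases). The sequence between these 7 genes was not searched. In the mt genome most of mt-Atp8 and the tRNA genes mt-Ts1, mt-Td, mt-Tk, mt-Tg and mt-Tr lie between the copied members. Whether they too have copies in this block was therefore not examined. Aligned without gaps, 681 of 681 bases of mt-Co2 and its copy Gm28661 were identical, as were 678 of 678 for mt-Atp6 and Gm10925, 783 of 783 for mt-Co3 and Gm28437, 294 of 294 for mt-Nd4l and Gm10222, and 876 of 876 for the first part of mt-Nd4 and Gm28439. The stretch of mt-Co2 from base 101 to base 160 (chrM:7113-7172, plus strand) and the same stretch of its copy (chr1:24615406-24615465, minus strand) are shown because their letters are the same throughout, so a short read from either matches both; both come from the GENCODE vM21 transcripts.
mt-Co2: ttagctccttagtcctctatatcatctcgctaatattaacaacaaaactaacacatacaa
Gm28661: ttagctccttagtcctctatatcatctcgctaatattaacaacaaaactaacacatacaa
mt-Nd3 differed from its copy by 1 base in 345, T3C, counted from 1 at the 5′ end of the member with the base of the member first. Its start (chrM:9459-9491, plus strand) and that of the copy (chr1:24613087-24613119, minus strand) are shown with the differing base in capitals.
mt-Nd3: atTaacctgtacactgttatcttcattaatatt
Gm28438: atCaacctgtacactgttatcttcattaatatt
Within the chromosome 1 block mt-Co1 is copied at its 3′ end only. The 6 differences of mt-Co1 from Gm29216 in 492 aligned bases (T1056A, C1057T, A1059G, A1060G, C1062A and A1066T) all lie in the first bases of the alignment. These are shown with the differing bases in capitals (chrM:6381-6413, plus strand, and chr1:24616165-24616197, minus strand).
mt-Co1: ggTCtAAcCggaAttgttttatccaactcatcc
Gm29216: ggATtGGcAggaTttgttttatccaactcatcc
In mt-Nd4 the identity ends inside the gene, and the 80 bases around that border (chrM:11003-11082, plus strand) are shown with the copied bases in capitals.
mt-Nd4: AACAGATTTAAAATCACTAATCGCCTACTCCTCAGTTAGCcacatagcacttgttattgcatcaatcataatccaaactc
The 7 chromosome 1 copies together had 47 reads in 1152 wells, and 5 of them had 0. All 15 nuclear genes of the table that share a 40-base window with a member had 5266 reads together, mostly Gm13340, which shares windows with mt-Co1 on chromosome 2 (2557 reads in 780 wells), and Gm13341 beside it, which shares windows with mt-Co2 (1548 reads). How reads with several matching places were treated is not given in the sources used here, so for mt-Co2, mt-Co3, mt-Atp6, mt-Nd3, mt-Nd4l and parts of mt-Nd4 and mt-Co1 a low value cannot be read as a low RNA level. Counting the nuclear copies with the members left the median mt share of a well at 1.90%. Their 5266 reads, against 6559560 mt reads in all wells, could hardly move it. The value says nothing of reads that were counted at neither place.

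mt-Atp8 and mt-Atp6, which share a transcript, moved together over wells: their shares of the mt total had a Spearman correlation of 0.88 over 854 wells and 0.85 over 158 deep oligodendrocyte-like wells. mt-Atp8 is printed whole (chrM:7766-7969, plus strand), with the 43 bases that also belong to mt-Atp6 in capitals.
mt-Atp8: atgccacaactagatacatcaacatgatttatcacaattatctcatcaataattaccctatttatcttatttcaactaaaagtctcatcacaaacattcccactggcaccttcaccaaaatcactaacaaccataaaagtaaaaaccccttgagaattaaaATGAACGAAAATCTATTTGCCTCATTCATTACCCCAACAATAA
The reads of mt-Atp6 stayed between 3 and 86 in every kept well (median 46), while those of mt-Atp8, 204 bases long against 681, lay between 6 and 277 (median 164).

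Among the tRNA genes mt-Ts1, the tRNA for serine that is read from the minus strand and touches the end of mt-Co1 by 3 bases, had the most reads, 23756 in all wells, and mt-Tv, the tRNA for valine between the 2 rRNA genes, came next with 15729. They were followed by mt-Tp (proline) with 12180, mt-Tl1 (leucine) with 11674 and mt-Tm (methionine) with 11642 reads, while mt-Ty (tyrosine) had the fewest, 477. The pair with the most reads and the one with the fewest are printed for comparison (chrM:6870-6938, minus strand; chrM:1025-1093, plus strand; chrM:5260-5326, minus strand).
mt-Ts1: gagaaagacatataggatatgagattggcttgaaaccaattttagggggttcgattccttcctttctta
mt-Tv: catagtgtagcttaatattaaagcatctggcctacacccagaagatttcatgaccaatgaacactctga
mt-Ty: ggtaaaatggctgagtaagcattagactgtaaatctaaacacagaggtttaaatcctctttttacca
mt-Ts1 was also the steadiest tRNA gene over wells. Its quartiles were 19 and 28 reads per well around a median of 23, and its coefficient of variation as a share of the mt total was 0.28, against 0.44 for mt-Tv and 1.00 for mt-Tm. Its share rose and fell with that of mt-Co1 (Spearman 0.40 over 854 wells, 0.51 in the deep oligodendrocyte-like wells). This was not particular to mt-Co1. In the same order the values were 0.48 and 0.30 with mt-Rnr2, 0.33 and 0.48 with mt-Cytb, and 0.33 and 0.45 with mt-Atp8. The other tRNA genes went the opposite way to mt-Ts1: all 20 tRNA genes beside mt-Tm and mt-Ts1 correlated with mt-Tm at 0.46 to 0.71 and with mt-Ts1 at -0.43 to -0.12. The counting used no strand that the sources name, and SMART-seq2 does not mark strand, so reads of mt-Ts1 cannot be told apart from reads of the opposite strand at the same place, and the same holds for the 14 bases that mt-Nd5 and mt-Nd6 share.

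The share of mt-Nd6 rose with those of mt-Nd5 (Spearman 0.66) and mt-Nd2 (0.52) and with those 20 tRNA genes (0.29 to 0.47), and fell as those of mt-Rnr2 (-0.59), mt-Cytb (-0.56), mt-Co1 (-0.54) and mt-Atp8 (-0.64) rose. The signs were the same in the 158 oligodendrocyte-like wells of 200000 or more reads, where mt-Nd6 correlated with mt-Nd5 at 0.62, with mt-Nd2 at 0.49 and with mt-Rnr2 at -0.66. These are descriptions over wells of 1 sample, and shares of 1 total are bound to each other, so that a rise of some forces a fall of others.

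The mt share of a well fell steeply with its depth. Over the 295 wells under 50000 reads the median share was 11.6% (quartiles 6.90 and 16.7), over the 136 wells of 50000 to 100000 reads 10.2% (6.42 and 12.2), over the 165 of 100000 to 200000 reads 3.06% (2.16 and 5.05) and over the 556 of 200000 or more reads 1.51% (1.19 and 1.99). The quartile ranges of the shallowest bins overlap, and those of the deeper bins overlap with no other. The bin of 100000 to 200000 reads depended on the set: its median was 2.26% in 600s_182s (82 wells) against 4.60% in 1025s_182s (30) and 4.94% in 613s (53), and 4.87% without 600s_182s. At 50000 to 100000 reads the medians were 3.45% in 600s_182s (26 wells), 10.5% and 11.3%. All kept wells together had a median of 1.90% and a highest value of 17.1%. A share over 10% was seen in 74 of 857 kept wells (8.63%) and in 246 of all 1152, and one over 20% in 33 wells, none of them among the kept wells.

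The number of mt reads changed less than the total did. Its median was 7440.5 reads per well at 50000 to 100000 reads, 4867 at 100000 to 200000 and 6360.5 at 200000 or more, while the median total rose from 73226 to 395304. Over the 857 wells the Spearman correlation of the share with total reads was -0.82, and that of mt reads with total reads was 0.22. Within a set or class the mt reads could still rise with depth: that correlation was 0.66 in 600s_182s, 0.25 in 613s and -0.10 in 1025s_182s, and 0.74 in OPC-like and 0.36 in oligodendrocyte-like wells. The relation of share to depth held within each set (-0.84 in 1025s_182s, -0.78 in 600s_182s and -0.92 in 613s) and within classes (-0.78 in OPC-like, -0.88 in oligodendrocyte-like and -0.71 in fibroblast-like wells). It did so partly by construction, since total reads are the divisor of the share.

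**Figure D2:**
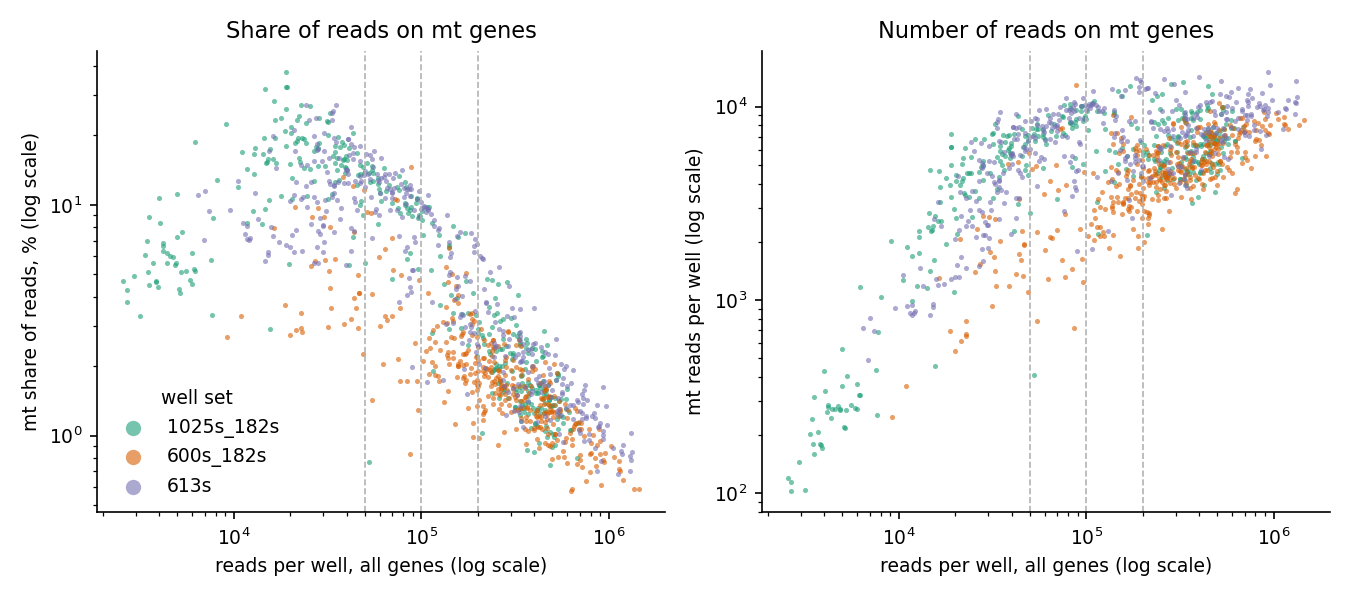
Each point is 1 of 1152 wells, coloured by well set; the left plot gives the mt share of reads in percent and the right plot the number of mt reads, both against total reads, all axes logarithmic, with dashed lines at 50000, 100000 and 200000 reads. The share falls from a median of 10.2% between the first pair of lines to 1.51% beyond the last, while the median number of mt reads is 7440.5 and 6360.5 in the same bins; below the first line mt reads rise with depth.

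The same was computed within classes. Oligodendrocyte-like wells of 200000 or more reads (158) had 6.20 times the mean total of those at 50000 to 100000 reads (21), yet their mean number of mt reads was 6835 against 6951, 0.983 times as many. The median nuclear gene with a mean of at least 20 reads in the lower bin (771 genes) rose 2.40-fold over the same step. Single members ranged from 0.753-fold for mt-Nd6 to 1.21-fold for mt-Co1 among the genes with over 100 reads, and the tRNA genes together stood at 0.851-fold. In OPC-like wells, from 100000 to 200000 reads (48) to 200000 or more (107), the total rose 2.68-fold, the mt reads 1.58-fold and the median nuclear gene 2.57-fold. In fibroblast-like wells the same step gave 2.87-fold for the total and 1.36-fold for the mt reads.

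Reads per base had an upper bound that no longer gene passed. Of the 34905 genes with a length of at least 300 bases, 0 exceeded 2 reads per base in any well, and 36 reached 1 or more. The highest value was that of mt-Rnr2, 1.72 reads per base, and mt-Nd1 (1.66), mt-Cytb (1.66) and mt-Rnr1 (1.44) were among the 10 highest, beside abundant cell type genes such as Ttr (1.68), Cldn11 (1.56) and Mog (1.43). mt-Rnr2 had at least 1 read per base in 51.0% of the kept wells, mt-Cytb in 37.5%, mt-Nd1 in 27.4% and mt-Atp8 in 21.2%. mt-Co1 and mt-Nd4, which share part of their windows with nuclear transcripts, reached at most 0.802 and 0.626. Whether duplicate reads had been removed before counting is not given in the sources used here, and its part in the fall of the mt share with depth was not tested.

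Other measures moved with depth as well. Summed neuron markers had a median of 925 CPM in wells under 50000 reads, the bin with the highest mt share, 7510.4 in wells of 50000 to 100000 reads, 426 at 100000 to 200000 and 299 at 200000 or more, and Malat1, a nuclear-retained RNA, went from 7221 over 4318 and 3714 to 2240.1 in the same order. Astrocyte markers had medians of 454, 1321, 918 and 352 CPM. Over the kept wells the mt share correlated with neuron markers at 0.55, with astrocyte markers at 0.43 and with Malat1 at 0.42. Their part in the mt share was not tested. The gate of oligodendrocyte-like wells admits fewer than 3 neuron markers and fewer than 3 astrocyte markers. In these wells the median share was 10.1%, 3.32% and 1.52% over the 3 bins. These wells still held neuron markers at a median of 549 CPM, against 335 in OPC-like wells, and their mt share correlated with them at 0.53.

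The 3 sets differed in mt reads. In kept wells the median mt share was 1.62% in 600s_182s (349 wells), 2.18% in 1025s_182s (239) and 2.60% in 613s (269), with 4811, 6670 and 8047 mt reads per well. At 200000 or more reads the shares drew together, at 1.36%, 1.60% and 1.63%, and their quartile ranges overlapped. Within oligodendrocyte-like wells of that depth the sets had 1.46%, 1.54% and 1.55% in the same order, but the mt reads were still highest in 613s, 7795 against 6499 in 600s_182s and 6318.5 in 1025s_182s. OPC-like wells showed the same, with 7405 mt reads in 613s against 5018 and 5100. Set 613s also had the deepest wells in that bin, a median of 463666 reads against 387896 in 600s_182s and 368861 in 1025s_182s.

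The mt share of the classes was compared above a common floor of depth, though their depth above it differed. At 200000 or more reads its median was 1.14% in COP-like (69 wells, quartiles 0.821 and 1.43), 1.27% in fibroblast-like (43, 1.08 and 1.57), 1.35% in OPC-like (107, 1.12 and 1.69), 1.52% in oligodendrocyte-like (158, 1.29 and 1.90) and 1.66% in endothelial-like wells (13, 1.39 and 2.27). The quartile ranges of all neighbours in this order overlap, and so do those of its ends. The COP-like wells, the lowest, were also the deepest, with a median of 471743 reads, and the endothelial-like wells, the highest, were the shallowest, with 297121 against 377965 in the OPC-like wells. Above this floor the share still fell with reads, with correlations from -0.55 in fibroblast-like to -0.85 in COP-like wells. Without set 600s_182s the COP-like median over kept wells was 1.63% in place of 1.15%, on 8 wells. Wells with neuropil and oligodendrocyte lineage markers together had the highest median, 2.19% (84 wells, 1.67 and 2.63), and 8573.5 mt reads per well against 6687 in oligodendrocyte-like wells of that depth. Their median was above that of each class with at least 5 wells in the same set, at 2.34%, 2.06% and 2.31% in 1025s_182s, 600s_182s and 613s.

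**Figure D3:**
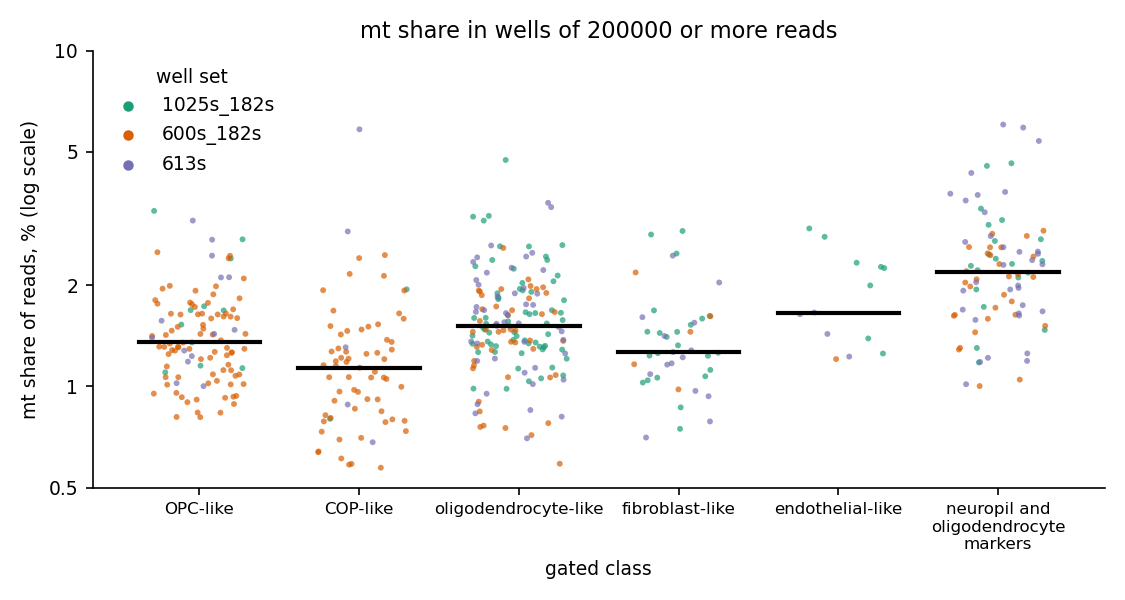
Each point is a well with 200000 or more reads, placed by its gated class and coloured by well set; the axis gives the mt share of reads in percent on a logarithmic scale and black bars are medians. Medians run from 1.14% in COP-like to 1.66% in endothelial-like wells, with 2.19% in the wells that carry neuropil and oligodendrocyte markers together.

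The make-up of the mt reads was compared between classes at the same depth. In fibroblast-like wells of 200000 or more reads the tRNA genes took 1.13% of the mt reads and in OPC-like wells 1.91%, a log2 ratio of -0.76, with medians per well of 0.992% (quartiles 0.779 and 1.20) and 1.67% (1.32 and 2.12) whose quartile ranges are apart. The direction was the same in each set: 0.815% against 1.39% in 1025s_182s, 0.967% against 1.62% in 600s_182s with 5 fibroblast-like wells, and 1.17% against 2.58% in 613s. With the sets pooled, mt-Tm was the single tRNA gene whose quartile ranges were apart, with 0.0405% of the mt reads against 0.133% (log2 -1.72). Within 613s those of other tRNA genes were apart too, among them mt-Tq, mt-Tw and mt-Tf (quartiles 0.0148 and 0.0368 against 0.101 and 0.214). In 600s_182s the quartile ranges of mt-Tf and mt-Tq overlapped. The pooled shares of mt-Tm in 613s were 0.0535% against 0.189%. In 600s_182s the pooled shares of mt-Tm went the other way, 0.167% on 31 reads in 5 fibroblast-like wells against 0.115% in OPC-like wells. The medians there were 0.0503% against 0.0796%, and the quartile ranges overlapped. mt-Rnr1 took 6.43% in fibroblast-like and 9.07% in OPC-like wells (log2 -0.50), with medians of 6.58% (5.71 and 7.26) and 9.05% (8.37 and 9.86). This held in 1025s_182s (6.22% against 8.52%) and in 613s (6.60% against 8.72%) but not in 600s_182s, where the 5 fibroblast-like wells had 9.14% against 9.33%. mt-Rnr2 did not share it: its medians in fibroblast-like and OPC-like wells were 28.7% and 27.0% in 1025s_182s, 27.5% and 26.3% in 600s_182s, and 25.6% and 23.3% in 613s.

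**Figure D4:**
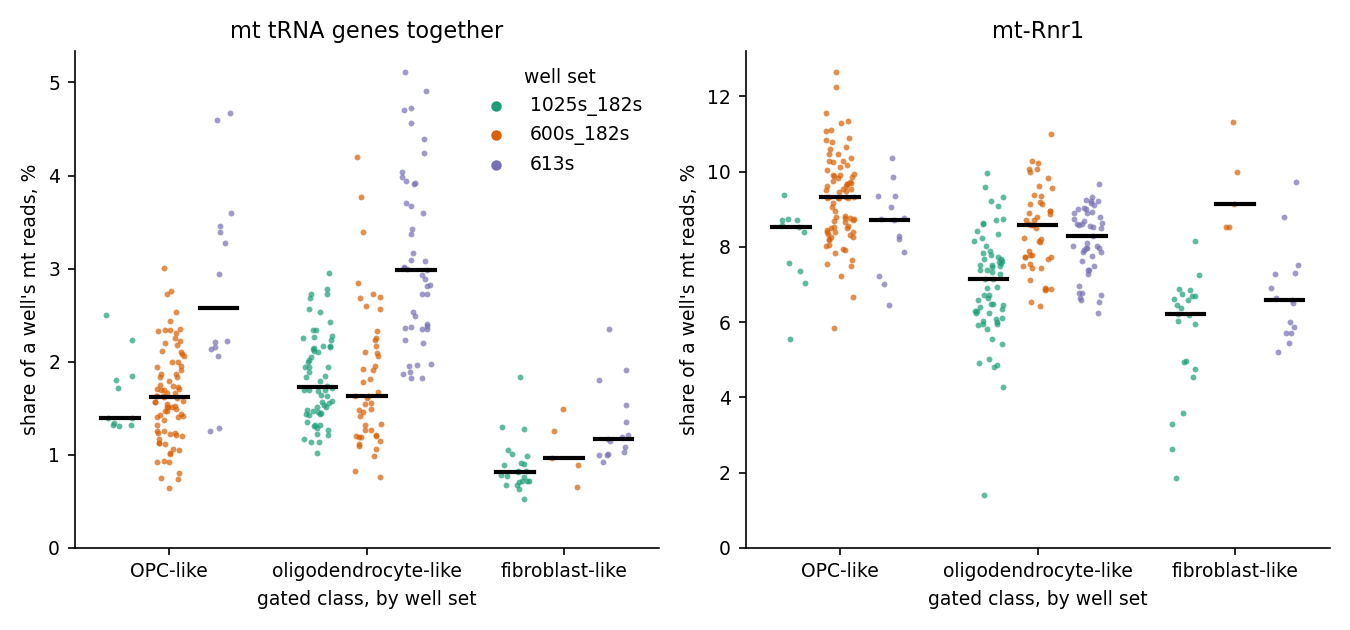
Each point is a well with 200000 or more reads, of 3 classes, grouped by class and coloured by well set (sets in the order of the legend within each class); the axes give the percentage of the well's mt reads on all 22 tRNA genes (left) and on mt-Rnr1 (right), and black bars are medians. Of the 3 classes drawn, fibroblast-like wells have the lowest tRNA median within each set, 0.815%, 0.967% and 1.17%, and set 613s has the highest tRNA median in each class.

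The tRNA genes also differed between sets within 1 class. In oligodendrocyte-like wells of 200000 or more reads the tRNA genes took a median of 2.99% of the mt reads in 613s (quartiles 2.37 and 3.81), against 1.63% (1.24 and 2.20) in 600s_182s and 1.73% (1.45 and 2.16) in 1025s_182s, log2 ratios of the pooled shares of 0.75 and 0.77. mt-Rnr2 was lower in 613s than in 1025s_182s, with medians of 22.3% (20.7 and 23.1) and 25.7% (24.1 and 27.3). Between depths within the class other members differed: from 50000 to 100000 reads to 200000 or more, mt-Co1 went from 9.44% to 11.6% of the mt reads, mt-Cytb from 13.9% to 16.2%, mt-Atp8 from 2.16% to 2.65% and mt-Atp6 from 0.613% to 0.763%. These were the 4 members whose quartile ranges were apart between those depths.

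Relative to non-mt reads, few members passed a 2-fold difference between classes. Reads were summed per class, scaled to CPM with 1 added, and called at 2-fold where the higher class reached 10 CPM; the OPC-like wells are the reference of all 4 comparisons, which therefore share them. Of 22 members that could be called in the COP-like comparison, 0 were higher and 0 lower, where 11.2% of all genes were higher and 24.2% lower. Of 26 in the oligodendrocyte-like comparison, 0 were called in either direction against 11.8% higher and 31.6% lower of all genes, and their median log2 ratio was 0.50 against -0.38 for all genes. In fibroblast-like wells 4 of 22 were lower and 0 higher, where 21.3% of all genes were higher and 30.4% lower. All 4 are tRNA genes, for phenylalanine, glutamine, methionine and tryptophan: mt-Tf (3.77 against 13.7 CPM), mt-Tq (8.38 against 18.3), mt-Tm (6.20 against 19.0) and mt-Tw (2.78 against 10.3). Without set 600s_182s 12 members were lower, and without 613s 2 were. In endothelial-like wells 1 of 23 was higher, the cysteine tRNA gene mt-Tc at 15.9 against 4.39 CPM, and 0 were lower, where 23.3% of all genes were higher and 39.9% lower; without set 600s_182s 0 were higher and 4 lower, and without 1025s_182s 2 were higher.

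Of 80 nuclear genes for subunits of complexes I to V, 77 could be called in the COP-like comparison with 0 higher and 0 lower and a median log2 ratio of 0.05, against -0.16 for all genes, of which 11.2% were higher and 24.2% lower. Without set 600s_182s 1 was higher and 7 were lower. In oligodendrocyte-like wells 0 of 77 were higher and 2 lower, where 11.8% of all genes were higher and 31.6% lower. The lower ones were Ndufa1, a complex I subunit (29.8 against 71.0 CPM), and Ndufa4, a subunit now placed in complex IV (97.5 against 221). Their log2 ratios were -0.31 and -0.90 without set 600s_182s, and -1.18 and -0.98 within it. Without 600s_182s 3 were higher and 0 lower, and without 613s 5 were lower. In fibroblast-like wells 1 of 77 was higher and 7 lower, where 21.3% of all genes were higher and 30.4% lower. The median log2 ratio there was -0.36 against -0.23 for all genes. Without 600s_182s 2 were higher and 2 lower, and without 1025s_182s 2 were higher. The higher one was Cox6b2, a testis-type isoform of a complex IV subunit, at 38.0 against 13.5 CPM. The lowest were Ndufs4 of complex I (37.3 against 108 CPM) and Atp5k of complex V (33.1 against 92.0). Without set 600s_182s and within it, where 11 wells were fibroblast-like, the log2 ratios were 3.36 and 1.61 for Cox6b2. They were -0.84 and -4.88 for Ndufs4, and -0.91 and -0.48 for Atp5k, which thus passed 2-fold in neither. In endothelial-like wells 3 of 78 passed the fold upwards and 8 downwards, where 23.3% of all genes were higher and 39.9% lower. The median log2 ratio there was -0.25 against -0.42 for all genes. Without 600s_182s 7 were higher and 3 lower, and without 1025s_182s 19 were lower. Cox4i2, the oxygen-regulated isoform of a complex IV subunit, was at 68.5 CPM against 0.0769, with reads in 7 of 20 endothelial-like and 4 of 160 OPC-like wells. Endothelial-like wells also held summed mural markers at a median of 245 CPM, against 4.55 in OPC-like wells. The part of mural RNA in this value was not tested. Uqcrfs1, the iron-sulfur subunit of complex III, was at 3.88 against 205 CPM. Beside the mt shares, the summed level of the 80 genes per well had medians of 14195 CPM in OPC-like, 14612 in COP-like, 12689.9 in oligodendrocyte-like, 10678 in fibroblast-like and 13493.5 in endothelial-like wells.

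A second list held 35 nuclear genes for mt transcription, RNA processing, DNA replication and biogenesis, of which 34 were in the table. COP-like wells had 1 higher and 5 lower of 31, oligodendrocyte-like 2 and 4 of 30, fibroblast-like 2 and 7 of 28, and endothelial-like 4 and 8 of 30. Over all genes the shares higher and lower were 11.2% and 24.2%, 11.8% and 31.6%, 21.3% and 30.4%, and 23.3% and 39.9% in the same order. Sets changed these counts: without 600s_182s 6 were higher and 13 lower in COP-like, 6 and 10 in oligodendrocyte-like and 8 higher in endothelial-like wells. Without 613s 0 were higher in COP-like and 1 higher and 9 lower in oligodendrocyte-like wells, and without 1025s_182s 2 were higher in COP-like, 4 in fibroblast-like and 7 in endothelial-like wells. Ppargc1a, a coactivator that drives mitochondrial biogenesis, was lower in all 4 comparisons: 42.7 CPM in OPC-like wells (reads in 52 of 160) against 0.625 in COP-like, 1.12 in oligodendrocyte-like and 0.298 in fibroblast-like wells and 0 in endothelial-like wells. Its log2 ratio in oligodendrocyte-like wells was -4.76 without set 600s_182s and -3.62 within it. Polg, the catalytic subunit of the mt DNA polymerase, was at 254 CPM in OPC-like wells (reads in 140 of 160) against 42.7 in COP-like and 23.3 in oligodendrocyte-like wells. Other genes of the list were higher. Top1mt was at 22.6 CPM in COP-like and 31.3 in oligodendrocyte-like wells, against 10.5 in OPC-like wells (reads in 27 of 160). Without set 600s_182s and within it, its log2 ratios were 1.83 and 0.94 in COP-like and 0.93 and 1.24 in oligodendrocyte-like wells. Tfb1m was at 15.4 in oligodendrocyte-like against 7.00 in OPC-like wells (reads in 28 of 160, 46.7% of them in 1 well). The log2 ratio of Tfb1m was 3.82 without set 600s_182s and 0.70 within it. Mterf4, a factor for assembly of the mt ribosome, was at 241 CPM in fibroblast-like and 23.7 in OPC-like wells, with log2 ratios of 5.52 without set 600s_182s and 2.74 within it. Tbrg4, an RNA-binding protein of the FASTK family, was at 0.397 against 49.5 CPM in the same comparison. In endothelial-like wells Tfb2m, a mt transcription factor, was at 23.1 against 2.04 CPM, but 81.7% of its reads there came from 1 well.

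The genes whose CPM were most like the mt share over the 857 wells included ribosomal RNA. Over 11405 nuclear genes the median Spearman correlation was -0.11, 18 genes were above 0.5 and 0 below -0.5. The highest were Yam1.1 (0.83), Rn18s-rs5 (0.83) and Yam1 (0.83), followed by Lrrc17 (0.79), Fth1 (0.72), Lars2 (0.70), AA465934 (0.69), Akap5 (0.69), Mir6240 (0.68) and Gm15564 (0.65). Rn18s-rs5 is named for 18S ribosomal RNA, and Fth1 encodes the ferritin heavy chain. The reads per well of several of them changed little while depth rose: Rn18s-rs5 had medians of 2434.5, 2539 and 2836 reads in wells of 50000 to 100000, 100000 to 200000 and 200000 or more reads, and never more than 3161, Lars2 had 204, 208 and 224.5, and Lrrc17 had 14, 12 and 13. The lowest correlations were those of P4hb (-0.45), Ndfip1 (-0.44), Marcksl1 (-0.41), 1700022I11Rik (-0.40) and Hnrnpk (-0.39). P4hb, a protein disulfide isomerase of the endoplasmic reticulum, rose from a median of 6 reads to 33 and 239.5 over the same bins, and Hnrnpk, an RNA-binding protein, from 9 to 70 and 246.5. Of the nuclear respiratory-chain genes, 77 had a median correlation of -0.12 with the mt share, -0.29 to 0.38, and 21 were above 0. All points share the depth of their well, which enters both measures.

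**Figure D5:**
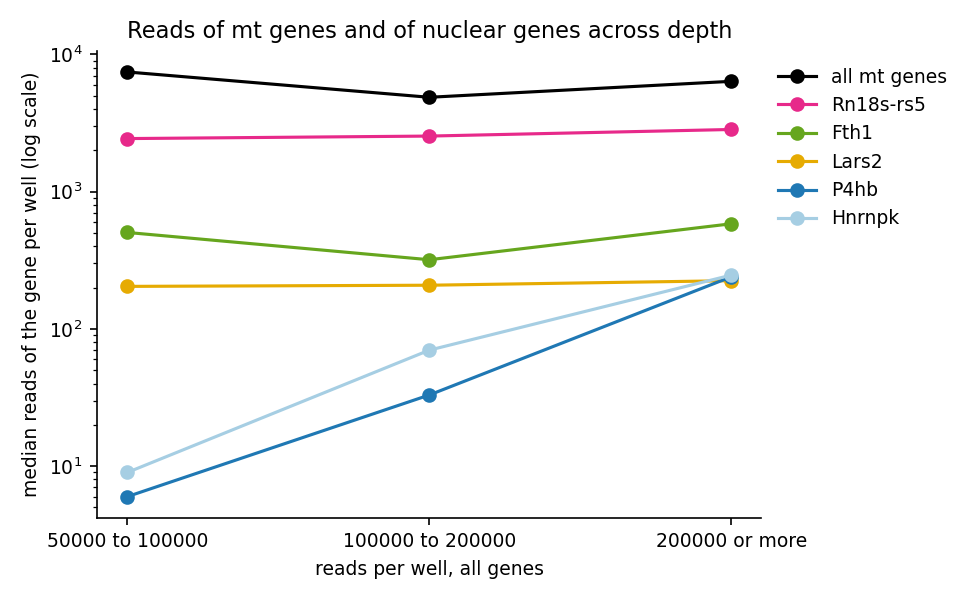
Median reads per well (log scale) of all mt genes together and of 5 nuclear genes, in 3 bins of total reads per well. The mt genes, Rn18s-rs5, Fth1 and Lars2 change by less than 2-fold between bins, while P4hb rises from 6 to 239.5 and Hnrnpk from 9 to 246.5.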

How the data were processed

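Whole-number read counts per gene and well were deposited by the authors as 1 table of 46517 genes and 1152 wells. The submitters' processing notes name the counter featureCounts (Subread 1.4.6-p5), the aligner TopHat2 (2.1.1), SAMtools (0.1.18) and the builds GRCm38 and mm10. Not given in the sources used here: the annotation, the use of strand, and what was done with multi-mapping and duplicate reads. The number of columns not used was 0. The wells could not be tied to animals and were treated as 1 sample, so no p-value was computed. Kept wells had 50002 to 1451280 reads. No doublet caller was run, and wells with markers of several lineages were kept as mixed. Counts were summed per class, scaled per 1000000 non-mt reads (CPM), 1 was added before log2, and calls needed a 2-fold difference and 10 CPM in the higher class. Lengths, coordinates and sequences came from GENCODE vM21 (GRCm38), which matched 42052 of the 46517 genes (90.4%). The members and gene lists were chosen with earlier results of these data known. Genes to be named were the mt mRNA and rRNA genes and the 5 tRNA genes with the most reads. Added to them were the 2 highest and 2 lowest genes of each list by log2 ratio. The 10 highest and 5 lowest correlations with the mt share were named as well. Not every list gene chosen in this way is printed. The tRNA genes mt-Ty, mt-Tf, mt-Tq, mt-Tw and mt-Tc were named after their values were seen. The scripts (Python 3.11.15, numpy 2.4.6, scipy 1.17.1, pandas 2.3.3, matplotlib 3.10.9) were tested on simulated data. Alternatives covered the depth filter, pooled reads, rRNA genes, nuclear copies, gate, pseudocount, low-value filter and each set left out.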

Additional observations from a re-analysis of the deposited data

How the results depend on the processing

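The called members in endothelial-like wells turned from 1 higher and 0 lower to 0 higher and 4 lower without set 600s_182s. The median mt share of kept wells was 1.68% at 100000 or more reads and, chosen after seeing the data, 1.64% without mixed wells. Without mt-Rnr1 and mt-Rnr2 it was 1.22% in all kept wells, 7.60%, 7.13%, 2.01% and 1.00% over the 4 depth bins, and 1.45%, 1.02% and 1.79% in sets 1025s_182s, 600s_182s and 613s. At 100000 or more reads it was 1.75% in 1025s_182s and 2.00% in 613s, and over pooled reads it was 1.45% in 600s_182s and 1.49% in OPC-like wells. At 200000 or more reads, also chosen after seeing the data, it was 1.35% in OPC-like and 1.52% in oligodendrocyte-like wells. The rRNA, mRNA and tRNA shares of the mt reads were 33.3%, 64.6% and 1.90% as medians over wells and 31.7%, 65.6% and 2.72% in wells with at least 5000 mt reads, and mRNA and tRNA took 96.3% and 3.71% without the rRNA genes in the total. With a pseudocount of 10, called mt expression genes were 0 higher and 3 lower in COP-like, 1 and 2 in oligodendrocyte-like, 1 and 4 in fibroblast-like and 2 and 3 in endothelial-like wells, lower nuclear subunit genes were 3 in fibroblast-like and 5 in endothelial-like wells, and called members were 0 lower in fibroblast-like and 0 higher in endothelial-like wells. With no filter on low values, members were 1 higher in oligodendrocyte-like, 11 lower in fibroblast-like and 2 higher in endothelial-like wells, and nuclear subunit genes were 1 lower in COP-like and 3 higher in fibroblast-like wells. At 200000 or more reads, mt expression genes were 2 higher in COP-like, 1 higher in fibroblast-like and 5 lower in endothelial-like wells. Leaving out each set in turn gave mt shares of 1.72% to 2.38% in all kept wells, 10.0% to 12.7%, 9.25% to 10.9%, 2.64% to 4.87% and 1.46% to 1.62% over the depth bins, and 1.14% to 1.63% in COP-like wells. The rRNA share was then 31.7% to 33.8%, the mRNA share 64.3% to 65.5% and the tRNA share 1.90% to 2.82%. Members were 2 to 12 lower in fibroblast-like, and 0 to 2 higher and 0 to 4 lower in endothelial-like wells. Nuclear subunit genes were 0 to 1 higher and 0 to 7 lower in COP-like, 0 to 3 and 0 to 5 in oligodendrocyte-like, 1 to 2 and 2 to 8 in fibroblast-like, and 3 to 7 and 3 to 19 in endothelial-like wells. Mt expression genes were 0 to 6 higher and 4 to 13 lower in COP-like, 1 to 6 and 6 to 10 in oligodendrocyte-like, 2 to 4 higher in fibroblast-like and 4 to 8 higher in endothelial-like wells. The causes of these changes were not tested. No paired analysis was possible because the wells carry no replicate numbers and no test was made. Counts of the tRNA genes were low, with medians of 12 reads per well or fewer for all but mt-Ts1. Those of the mRNA genes mt-Co2, mt-Co3, mt-Nd4l and mt-Nd3 were low as well, with medians of at most 2.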
